A study of Mus musculus with 16 samples.

Results

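The genes of the renin-angiotensin and endothelin systems described here were 9 of the 33641 gene symbols in the deposited tables, chosen by name: Agt, Ace, Agtr1a, Agtr2, Agtrap, Edn1, Ece1, Ednra and Ednrb. They were followed in 16 libraries of whole left ventricle (called heart below) and whole subcutaneous white adipose tissue (scWAT) from C57BL/6J mice aged 28 weeks. Heart was represented by 4 libraries labelled Adipo-HuR KO (mice A25, A29, A30 and A31) and by 4 wild-type ones from mice A5, A7, A8 and A14. Adipose tissue was represented by 3 libraries labelled Adipo-HuR KO (A24, A26 and A30) and by 5 wild-type ones, from the same 4 mice and A12. The Adipo-HuR KO label, written KO-labelled below, stands for loss of HuR, an RNA-binding protein whose gene is Elavl1, that is meant to be confined to adipocytes. The promoter that drives the deletion is not given in the labels, and whole tissue holds many cells other than adipocytes. Mice A5, A7, A8 and A14 gave both tissues, as did A30 among the KO-labelled mice.

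The renin-angiotensin system starts with angiotensinogen (Agt), a secreted protein from which renin releases angiotensin I. Angiotensin-converting enzyme (Ace) turns that peptide into angiotensin II, which raises blood pressure and promotes growth and fibrosis of the heart through its type 1 receptor (Agtr1a), while the type 2 receptor (Agtr2) is known for opposing effects and Agtrap binds the type 1 receptor and promotes its internalisation. In the endothelin system, endothelin-converting enzyme (Ece1) cuts the precursor of endothelin-1 (Edn1) to the active vasoconstrictor peptide, which acts on the receptors Ednra, prominent on vascular smooth muscle and cardiomyocytes, and Ednrb, prominent on endothelium.

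All levels are TPM, the transcript abundance per length scaled to the same total in each library, so levels of different genes can be set side by side, and the sequencing depth is unknown. Elavl1 was not lower in the KO-labelled scWAT libraries, where its level was 42.9 TPM for A24, 42.0 TPM for A26 and 36.2 TPM for A30, against 33.4, 34.5, 27.6, 19.5 and 19.0 TPM in wild-type scWAT. It was higher without overlap, as were 5.23% of tested scWAT genes. Every direction below is therefore between libraries by their labels. In heart Elavl1 stood between 8.45 and 15.9 TPM in KO-labelled libraries and between 6.66 and 12.6 TPM in wild-type libraries. Summed cardiomyocyte markers, a list that includes the natriuretic peptide gene Nppa, reached 22007 to 29103 TPM in KO-labelled hearts and 23204 to 32318 TPM in wild-type hearts. Summed adipocyte markers reached 55276 to 68295 TPM in KO-labelled scWAT and 44683 to 73738 TPM in wild-type scWAT, so both lists followed the tissue labels. Among the hearts, A29 stood apart from the other KO-labelled libraries and lay with the wild-type hearts on many genes, so heart results are given with and without it. Among the KO-labelled scWAT libraries, summed lymph node markers reached 1516 TPM in A26 but at most 26.2 TPM in any other scWAT library, and those of skeletal muscle summed to 3975 TPM for A24 and 8213 TPM for A30, with at most 858 TPM in wild-type scWAT.

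**Figure D1:**
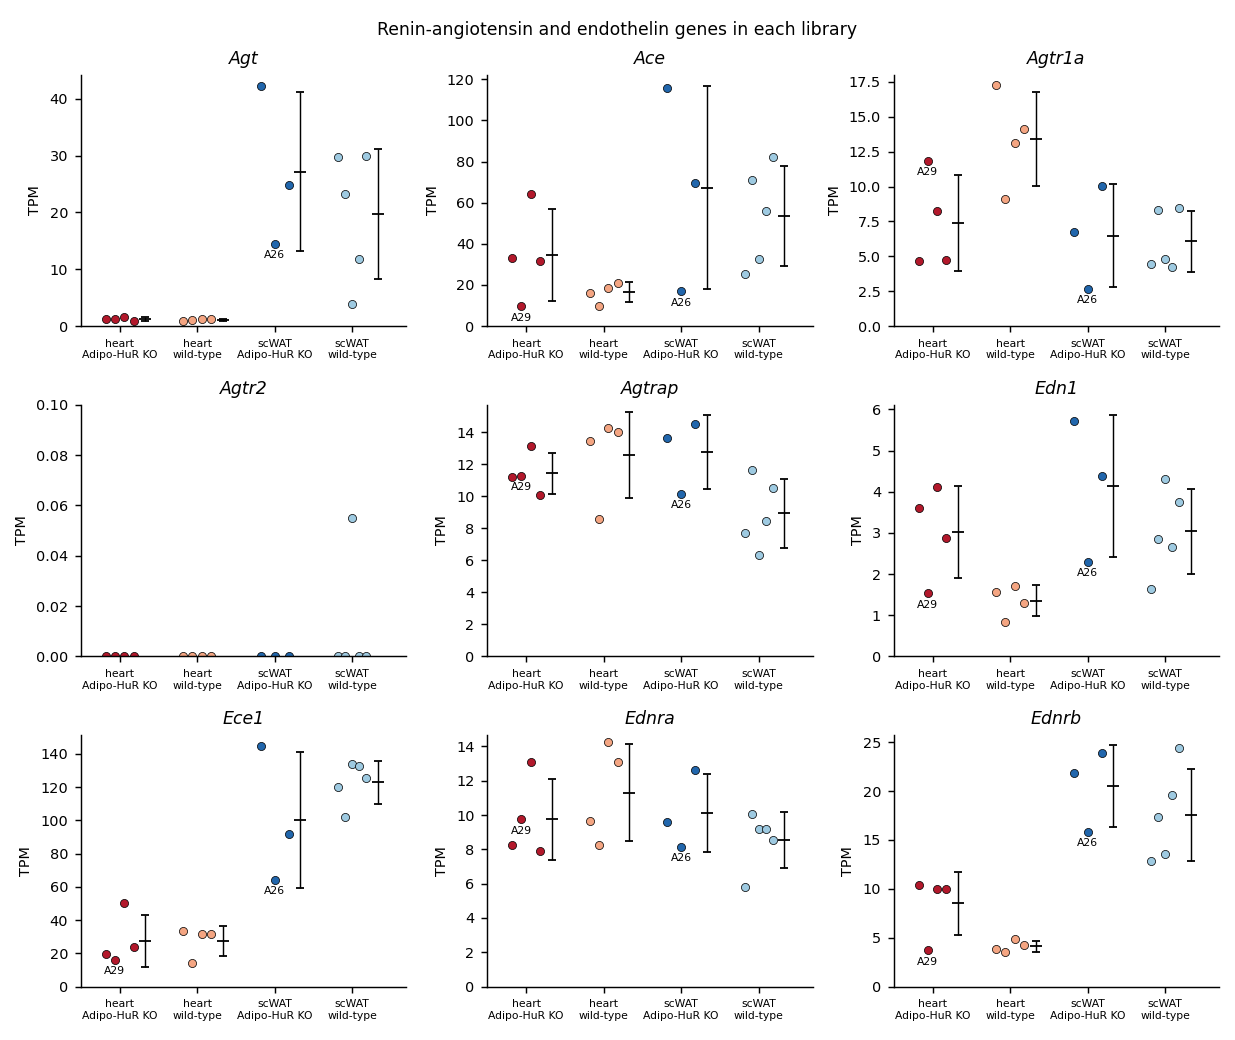
TPM of each gene in every library, with 1 point per mouse and the mean and SD of each group beside its points, except for Agtr2, which is drawn without a mean. Agt, Ece1 and Ednrb stood lower in wild-type hearts than in wild-type scWAT, and in the KO-labelled hearts A29 is the library nearest to the wild-type hearts for Ace, Agtr1a, Edn1 and Ednrb.

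Angiotensinogen was a transcript of fat rather than of heart. Agt stood at 1.18, 1.22, 1.63 and 0.864 TPM in the KO-labelled hearts A25, A29, A30 and A31, against 1.08, 1.29, 1.32 and 0.932 TPM in the wild-type hearts A5, A7, A8 and A14. In scWAT it stood at 42.2, 14.5 and 24.8 TPM in KO-labelled A24, A26 and A30, against 3.95, 11.8, 29.8, 29.7 and 23.2 TPM in the wild-type A5, A7, A8, A12 and A14. The 2 labels overlapped in both tissues, and Agt varied widely among the wild-type adipose libraries. It did not pass the test in either tissue (limma on log2(TPM + 1), with a difference of 0.04, SE 0.20 and adjusted p = 0.917 in heart, and 0.60, SE 0.61 and adjusted p = 0.627 in scWAT). Adjusted p-values here and below are Benjamini-Hochberg values over all tested genes, with a threshold of 0.05.

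Edn1, the precursor of endothelin-1, was the other ligand. In heart it stood at 3.60, 1.53, 4.11 and 2.88 TPM in KO-labelled A25, A29, A30 and A31, against 0.842, 1.70, 1.29 and 1.56 TPM in wild-type A5, A7, A8 and A14. A25, A30 and A31 lay above every wild-type heart, whereas A29 lay among them. In scWAT it stood at 5.73, 2.30 and 4.38 TPM in KO-labelled A24, A26 and A30, against 4.32, 2.66, 3.75, 1.64 and 2.85 TPM in wild-type libraries, with overlap between the labels. The scWAT difference was 0.32 (SE 0.30, limma adjusted p = 0.594). Levels of Edn1 in A25, A30 and A31 hearts were thus in the range of wild-type adipose tissue on the TPM scale.

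Among the enzymes, Ace stood at 33.3, 9.59, 64.1 and 31.7 TPM in the KO-labelled hearts A25, A29, A30 and A31, against 9.84, 18.6, 21.1 and 16.03 TPM in the wild-type hearts. A29 had the lowest Ace level of all 8 hearts and the other 3 KO-labelled hearts had the highest. In scWAT it stood at 116, 16.8 and 69.4 TPM in KO-labelled A24, A26 and A30, against 32.6, 56.0, 82.1, 25.4 and 71.1 TPM in wild-type libraries. A24 lay above and A26 below every wild-type library, and the fitted difference was 0.09 (SE 0.60, limma adjusted p = 0.951). Without A26, the library with lymph node markers, it was 0.87 (SE 0.45, adjusted p = 0.551).

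Ece1, which activates endothelin, was the most abundant of the 9 genes in every scWAT library. It stood at 145, 64.2 and 92.0 TPM in KO-labelled scWAT A24, A26 and A30, against 134, 133, 126, 120.3 and 102 TPM in wild-type scWAT. A24 lay above and both A26 and A30 below the wild-type libraries (-0.36 on the log2 scale, SE 0.24, limma adjusted p = 0.451). In heart it stood at 19.4, 16.2, 50.3 and 23.6 TPM in KO-labelled A25, A29, A30 and A31, against 14.2, 31.3, 31.4 and 33.7 TPM in wild-type hearts. The labels overlapped, with a difference of -0.08 (SE 0.37, limma adjusted p = 0.903), and the wild-type heart A5 stood well below the other wild-type hearts.

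Agtr1a, the type 1 receptor of angiotensin II, was the angiotensin receptor measured in these tissues. It stood at 4.69, 11.8, 8.25 and 4.76 TPM in KO-labelled hearts A25, A29, A30 and A31, against 9.11, 13.1, 14.1 and 17.3 TPM in wild-type hearts. A25, A30 and A31 lay below every wild-type heart, and A29 lay among them. In scWAT it stood at 6.75, 2.67 and 10.01 TPM in KO-labelled A24, A26 and A30, against 4.83, 4.21, 8.48, 4.47 and 8.35 TPM in wild-type libraries, and the labels overlapped (difference -0.01, SE 0.37, limma adjusted p = 0.994). Agtr1b, its near-identical copy in rodents, was listed at no more than 0.0416 TPM in any library, and how reads were shared between the copies is not given in the sources used here, so both values are uncertain. Agtr2, the type 2 receptor, was listed at 0 in 15 libraries and at 0.0550 TPM in the wild-type scWAT of A5. It did not reach the mean of 1 TPM required for a test in either tissue, which left 8 tested genes of the 9.

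Agtrap, which binds the type 1 receptor, overlapped between the labels in heart. It stood at 11.2, 11.3, 13.1 and 10.1 TPM in KO-labelled hearts A25, A29, A30 and A31, against 8.58, 14.2, 14.02 and 13.5 TPM in wild-type hearts (difference -0.11, SE 0.22, limma adjusted p = 0.771). In scWAT it stood at 13.6, 10.1 and 14.5 TPM in KO-labelled A24, A26 and A30, against 6.35, 8.43, 10.5, 7.72 and 11.7 TPM in wild-type libraries. A24 and A30 lay above all wild-type libraries and A26 lay among them. The scWAT difference of 0.48 (SE 0.21) had the lowest unadjusted p of the 8 genes in that tissue and did not pass after adjustment (limma adjusted p = 0.310).

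The 2 endothelin receptors differed in how evenly they were expressed. Ednra stood at 8.27, 9.75, 13.1 and 7.92 TPM in KO-labelled hearts A25, A29, A30 and A31, against 8.26, 14.3, 13.1 and 9.67 TPM in wild-type hearts, and at 9.60, 8.14 and 12.6 TPM in KO-labelled scWAT, against 9.21, 9.20, 8.56, 5.79 and 10.03 TPM in wild-type scWAT. It overlapped between labels in both tissues, with differences of -0.19 (SE 0.24, limma adjusted p = 0.640) in heart and 0.22 (SE 0.20, adjusted p = 0.594) in scWAT. Ednrb stood at 10.4, 3.71, 9.99 and 10.002 TPM in KO-labelled hearts A25, A29, A30 and A31, against 3.54, 4.90, 4.21 and 3.86 TPM in wild-type hearts. A25, A30 and A31 lay within a narrow band above every wild-type heart and A29 lay inside the wild-type range. In scWAT Ednrb stood at 21.8, 15.8 and 23.9 TPM in KO-labelled A24, A26 and A30, against 13.6, 19.6, 24.4, 12.8 and 17.3 TPM in wild-type libraries, with overlap (difference 0.23, SE 0.23, limma adjusted p = 0.618).

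In scWAT none of the 8 tested genes passed the threshold between the labels, where 0.0219% of the 13682 tested genes did. At an unadjusted p under 0.05, limma called 1 of the 8, Agtrap, and 15.6% of all tested genes. The median log2 fold change of the 8 genes was 0.22, beside 0.03 over all tested genes. The labels overlapped for all 8 genes, and in KO-labelled scWAT the lymph node and skeletal muscle markers given above differed between A26 and the pair A24 and A30. A26 also had the lowest summed fibroblast markers, at 1276 TPM, against 4856 TPM in A24, 3825 TPM in A30 and 3528 to 5411 TPM in wild-type scWAT. Its smooth muscle and pericyte sum of 201 TPM was the lowest too. Wild-type A5 held mammary epithelium markers at 45.3 TPM, against at most 4.03 TPM in the other scWAT libraries. Their part in the spread of these genes was not tested, and in bulk tissue fewer cells of a type and less RNA per cell cannot be told apart.

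In heart with all 8 libraries, none of the 8 tested genes passed either, where 0.0501% of the 11981 tested genes did. At an unadjusted p under 0.05, limma called 2 of the 8 higher (20.9% of all tested genes) and 1 lower (3.66%). Edn1 differed by 0.75 (SE 0.27, adjusted p = 0.149), Ednrb by 0.81 (SE 0.30, adjusted p = 0.153), Ace by 0.82 (SE 0.47, adjusted p = 0.289) and Agtr1a by -0.84 (SE 0.31, adjusted p = 0.151). These differences stand on a median of 0.26 over all tested heart genes. Mitochondrially encoded transcripts took 43.4% to 55.7% of all TPM in KO-labelled hearts and 51.9% to 60.6% in wild-type hearts. The means were 48.6% and 54.7%, so on average less of the total went to nuclear genes in wild-type hearts. The ranges overlapped, with A29 at 55.7%.

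Without A29 the calls in heart changed for 4 of the 8 genes. Ace was 2.48-fold higher (log2 fold change 1.31, SE 0.30, limma adjusted p = 0.00784) in KO-labelled hearts than in wild-type hearts, Ednrb 2.18-fold higher (1.12, SE 0.18, adjusted p = 0.00117) and Edn1 1.94-fold higher (0.95, SE 0.20, adjusted p = 0.00475), all as ratios of TPM + 1. Agtr1a fell to 5.90 ± 2.03 TPM (SD, n = 3) in KO-labelled hearts, against 13.4 ± 3.37 TPM (SD, n = 4) in wild-type hearts (-1.07 on the log2 scale, SE 0.26, limma adjusted p = 0.0100). In these 4 genes the labels did not overlap once A29 was set aside. Over all 12081 genes tested without A29, 34.8% were called higher and 4.16% lower, and 45.3% lay wholly above and 3.65% wholly below the wild-type hearts. The 3 of 8 called higher is close to that background, and the median of all tested genes was 0.39. Relative to that median, Ace was higher by 0.92, Ednrb by 0.74 and Edn1 by 0.57, and Agtr1a fell by 1.46 on the log2 scale.

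The other 4 tested genes did not pass without A29 in the scaling as deposited. Agtrap differed by -0.11 (limma adjusted p = 0.724), Ednra by -0.20 (adjusted p = 0.557), Ece1 by 0.11 (adjusted p = 0.831) and Agt by 0.04 (adjusted p = 0.889). When the same 7 hearts were scaled by median of ratios, which removes the shift of the median, Agtrap at -0.58 (limma adjusted p = 0.00318) and Ednra at -0.66 (adjusted p = 0.00576) also passed as lower, and the 4 calls above kept their direction and their side of the threshold. Calls lower were far more common in that fit, with 2340 genes higher and 2499 lower over all tested genes, beside 4203 and 502 in the scaling as deposited. The fit of all 8 hearts with array weights, which give libraries that deviate less weight, called Ace, Edn1 and Ednrb higher (43.1% of all tested genes were) and Agtr1a, Agtrap, Ednra and Ece1 lower (22.7% were). Ece1 was -0.58 with array weights, beside 0.11 without A29. A29 was set aside because it lacked differences seen in the other KO-labelled hearts, so values without it are no independent test. The array weights were estimated from the same 8 hearts, so that fit is no independent test either.

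**Figure D2:**
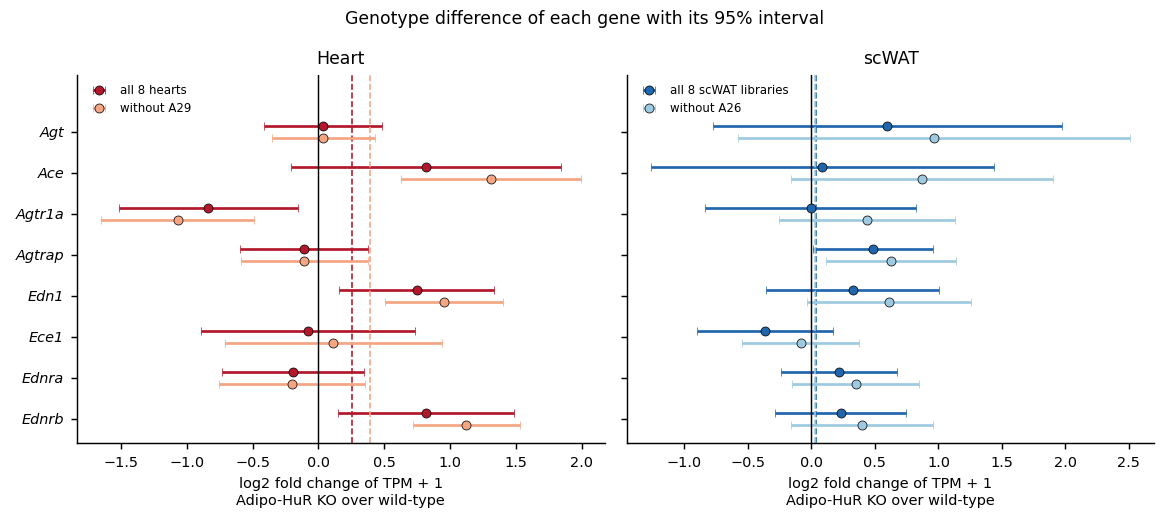
Log2 fold change of TPM + 1, KO-labelled over wild-type, for the 8 tested genes in heart (left) and scWAT (right), with 95% intervals from limma and dashed lines at the median of all tested genes. In heart, Ace, Edn1, Ednrb and Agtr1a lie away from 0 without A29, whereas in scWAT the points without A26 lie to the right of the points with all libraries.

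Markers of other cells moved with these heart genes. Summed fibroblast markers reached 2433, 295, 3789 and 3223 TPM in the KO-labelled hearts A25, A29, A30 and A31, against 239 to 382 TPM in wild-type hearts, and all 10 were called higher without A29. Summed macrophage markers reached 998, 125, 1050 and 1267 TPM in the same KO-labelled hearts, against 128 to 204 TPM in wild-type hearts, and all 7 were called higher without A29. Endothelial markers without Fabp4, which adipocytes also express, summed to 374, 238, 462 and 376 TPM in A25, A29, A30 and A31, against 187 to 367 TPM in wild-type hearts. Of the 11 endothelial markers, 5 were called higher without A29, where 34.8% of all tested genes were, a share not far below that of these markers. Smooth muscle and pericyte markers summed to 275 to 464 TPM in KO-labelled hearts and 260 to 370 TPM in wild-type hearts. The 5 atrial markers summed to 6987, 54.0, 5026 and 5386 TPM in KO-labelled hearts A25, A29, A30 and A31, against 110 to 315 TPM in wild-type hearts, beside the left ventricle label. Nearly all of that sum was Nppa, the atrial natriuretic peptide, which ventricular muscle can also express, at 6980, 52.7, 5021 and 5380 TPM in the same KO-labelled hearts and 108 to 313 TPM in wild-type hearts. The other atrial markers were low, with Myl4 at no more than 4.86 TPM, Myl7 at no more than 1.33 TPM and Bmp10 and Sln under 1 TPM in every heart, and both tested ones, Nppa and Myl4, were called higher without A29. Nppa is also 1 of the 8 cardiomyocyte markers, whose sums with Nppa were 28570, 29103, 28147 and 22007 TPM in A25, A29, A30 and A31. Of those 8, 1 was called higher and 3 lower without A29, where 34.8% and 4.16% of all tested genes were. The 10 skeletal muscle markers summed to 1569, 199, 2282 and 1210 TPM in A25, A29, A30 and A31, against 55.9 to 193 TPM in wild-type hearts. Most of it was Acta1, an actin that heart muscle also expresses, at 1563, 191, 2270 and 1201 TPM in those KO-labelled hearts and 48.2 to 183 TPM in wild-type hearts, while the myosins Myh1, Myh2 and Myh4 were at or near 0 in every heart. Of the 5 skeletal muscle markers tested without A29, 3 were called higher and 1 lower. Lymph node markers summed to 77.2, 16.3, 73.8 and 101 TPM in A25, A29, A30 and A31, against 11.9 to 39.8 TPM in wild-type hearts. Those of mammary epithelium summed to 15.5, 0.272, 23.6 and 18.6 TPM in the same hearts, against 0.413 to 2.41 TPM in wild-type hearts. Each of these lists had 1 tested marker. Mast cell markers summed to 11.8, 3.65, 10.3 and 19.8 TPM, against 2.84 to 9.41 TPM. Adipocyte and nerve marker sums of A25, A30 and A31 overlapped the wild-type range. The part of these cell types and markers in the Ace, Edn1, Ednrb and Agtr1a values was not tested.

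Because a ratio of levels within a library does not depend on that library's scaling, receptor balance was also read as ratios, which are given as a description with no test. The Ednra to Ednrb ratio was 0.796, 2.63, 1.31 and 0.792 in KO-labelled hearts A25, A29, A30 and A31, against 2.33, 2.91, 3.11 and 2.51 in wild-type hearts A5, A7, A8 and A14. Ednra transcripts were thus more abundant than Ednrb transcripts in each wild-type heart and in A29, and less abundant in A25 and A31. In scWAT the ratio was 0.440 to 0.529 in KO-labelled libraries and 0.351 to 0.679 in wild-type libraries. The Agtr1a to Agtrap ratio was 0.418, 1.05, 0.629 and 0.473 in KO-labelled hearts A25, A29, A30 and A31, against 1.06, 0.922, 1.01 and 1.28 in wild-type hearts.

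**Figure D3:**
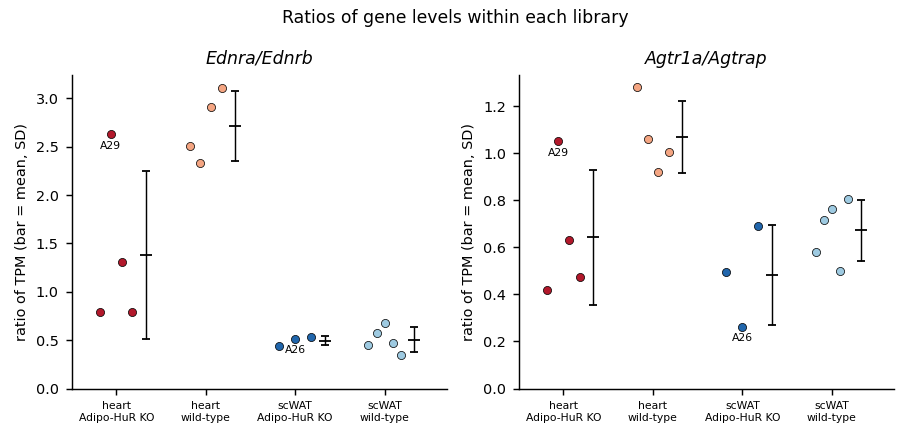
Ratios of TPM within each library, with 1 point per mouse, and means with SD. The Ednra to Ednrb ratio is 0.792 to 1.31 in the KO-labelled hearts A25, A30 and A31 and 2.33 to 3.11 in wild-type hearts, with A29 at 2.63.

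An interaction term over all 16 libraries, heart effect minus scWAT effect, asked whether the labels differed more in one tissue than in the other. None of the 8 genes passed, where 0.0607% of the 11536 genes tested in both tissues did, and none reached an unadjusted p under 0.05 with limma, where 20.5% of all did. The values closest to the threshold were -0.59 (SE 0.30, adjusted p = 0.272) for Agtrap and -0.83 (SE 0.50, adjusted p = 0.360) for Agtr1a. Without A29 Ednrb passed with a value of 0.89 (SE 0.29, limma adjusted p = 0.0349), where 22.4% of the 11624 tested genes were called higher. In the same fit Agtr1a had -1.06 (SE 0.48, adjusted p = 0.121), Ace 1.23 (SE 0.74, adjusted p = 0.248) and Edn1 0.63 (SE 0.37, adjusted p = 0.235). For those genes a heart difference past the threshold and a scWAT difference short of it are therefore not shown to differ.

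Between the tissues of wild-type mice the 8 tested genes did not all lie on the same side. In TPM as deposited, Agt was lower in heart by 2.99 on the log2 scale (1.15 ± 0.182 TPM in heart, n = 4, and 19.7 ± 11.5 TPM in scWAT, n = 5, SD, limma adjusted p = 4.26e-05). Ece1 (27.7 ± 9.02 TPM in heart and 123 ± 13.0 TPM in scWAT, SD), Ednrb (4.13 ± 0.581 and 17.5 ± 4.73 TPM), Ace (16.4 ± 4.85 and 53.4 ± 24.3 TPM) and Edn1 (1.35 ± 0.378 and 3.04 ± 1.03 TPM) were also lower in heart. Agtr1a was higher in heart, at 13.4 ± 3.37 TPM against 6.07 ± 2.15 TPM in scWAT (1.05 on the log2 scale, SE 0.24, limma adjusted p = 0.00127). Agtrap (12.6 ± 2.68 TPM in heart and 8.94 ± 2.14 TPM in scWAT, adjusted p = 0.0559) and Ednra (11.3 ± 2.81 TPM in heart and 8.56 ± 1.63 TPM in scWAT, adjusted p = 0.115) did not pass with limma. The 5 calls lower in heart stand beside 78.5% of the 13093 tested genes, and the 1 call higher beside 8.12%. The median of all tested genes was -1.27, and mitochondrially encoded transcripts took 6.14% to 14.4% of TPM in wild-type scWAT, far less than in heart.

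The tissue order of some genes depended on that shift. Under median-of-ratios scaling 33.1% of genes were called higher and 34.2% lower in wild-type heart, and Agtr1a at 2.34, Agtrap at 1.78 and Ednra at 1.68 passed as higher in heart with limma. Agt at -1.92, Ece1 at -0.75 and Ednrb at -0.54 passed as lower in heart under that scaling too. Ace, at -0.16 (adjusted p = 0.627), no longer passed, and Edn1 turned to 0.20 (adjusted p = 0.289). Quantile normalization gave the same 3 calls higher and 3 lower, as did TPM without mitochondrially encoded genes. Within wild-type hearts the most abundant of the 9 genes were thus Ece1, Ace, Agtr1a, Agtrap and Ednra by their means, whose ranges overlapped for each pair of neighbours, followed by Ednrb and, with ranges that overlapped each other, Edn1 and Agt.

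**Figure D4:**
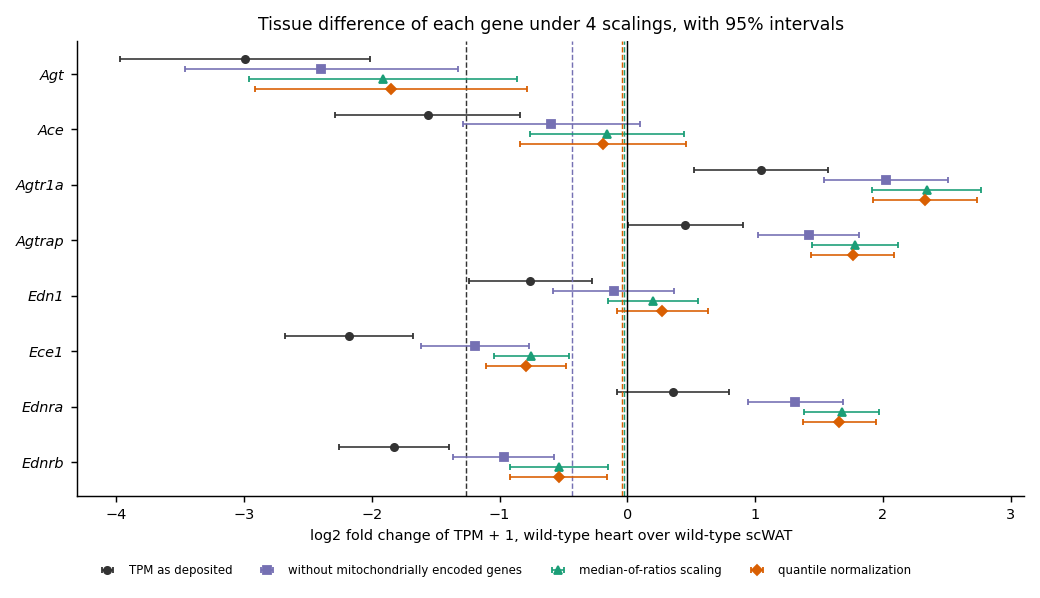
Log2 fold change of TPM + 1, wild-type heart over wild-type scWAT, for the 8 tested genes under 4 scalings, with 95% intervals from limma and dashed lines at the median of all tested genes under each scaling. Agtr1a lies to the right of 0 and Agt, Ece1 and Ednrb to the left under every scaling drawn, while Edn1 and Ace cross or reach 0 under scalings that remove the shift of the median.

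Promoter sequences are shown for Ace, Edn1 and Ednrb, the 3 genes called higher together in KO-labelled hearts without A29. They come from RefSeq on build GRCm38.p6, which held a promoter for 8 of the 9 genes, and run from 250 bases before to 50 bases after the annotated start, 5′ to 3′ on the strand of the gene. For Ace, which has 2 annotated starts there, the upstream one is shown. Ace lies at chr11:105967698-105967997 on the plus strand, Edn1 at chr13:42301226-42301525 on the plus strand and Ednrb at chr14:103843652-103843951 on the minus strand. Capitals mark matches, on either strand, to TATAAA in Ace and to AGATAA in Edn1.
Ace: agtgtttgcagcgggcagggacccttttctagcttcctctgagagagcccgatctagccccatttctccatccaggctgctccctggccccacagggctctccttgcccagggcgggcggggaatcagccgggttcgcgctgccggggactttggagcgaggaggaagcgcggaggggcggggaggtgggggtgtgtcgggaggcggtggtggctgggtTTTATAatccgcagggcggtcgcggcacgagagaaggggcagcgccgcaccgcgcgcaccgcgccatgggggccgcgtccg
Edn1: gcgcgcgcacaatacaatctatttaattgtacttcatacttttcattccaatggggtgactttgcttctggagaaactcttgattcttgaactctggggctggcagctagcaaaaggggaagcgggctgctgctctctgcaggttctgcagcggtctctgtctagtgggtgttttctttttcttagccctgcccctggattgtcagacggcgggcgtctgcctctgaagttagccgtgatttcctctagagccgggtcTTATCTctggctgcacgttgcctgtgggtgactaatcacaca
Ednrb: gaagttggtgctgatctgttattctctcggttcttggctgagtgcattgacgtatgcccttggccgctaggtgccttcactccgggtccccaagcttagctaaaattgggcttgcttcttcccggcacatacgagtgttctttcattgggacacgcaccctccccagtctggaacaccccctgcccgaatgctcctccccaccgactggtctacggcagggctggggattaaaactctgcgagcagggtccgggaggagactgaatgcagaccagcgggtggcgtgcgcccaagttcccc
The Ace match, printed as TTTATA, reads TATAAA on the strand opposite to the gene. Its first printed letter lies at position -31 from the start site, and 13.6% of the 32544 annotated promoters of this length hold that motif on either strand. The Edn1 match, printed as TTATCT, reads AGATAA on the strand opposite to the gene. Its first printed letter lies at position 9 after the annotated start, and AGATAA or TGATAA, the letters of a GATA motif, are held by 18.5% of those promoters. Which start is used in these tissues was not measured. No exact match to TGANTCA, the letters of an AP-1 motif held by 7.79% of promoters, was found in these 3 windows, and the Ednrb window held none of these motifs. Sites that depart from the listed letters were not searched for. GGAAA, the core letters of an NFAT motif held by 61.5% of promoters, was found 1 time in Edn1. Bases G and C made up 69.7% of the Ace window, 58.7% of the Ednrb window and 51.3% of the Edn1 window, beside a median of 53% over all promoters. A match is a description of letters only.

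The wider pathway was read through 78 other genes in 6 lists, of which 64 were tested in each tissue. With all libraries none passed in scWAT (at an unadjusted p under 0.05, limma called 3 higher, where 8.11% of all tested genes were, and 4 lower, where 7.52% were) or in heart (19 higher unadjusted, where 20.9% of all tested genes were, and 2 lower, where 3.66% were). In scWAT the lowest unadjusted p belonged to Nln, a peptidase that cleaves angiotensin peptides, at 20.8, 15.2 and 23.7 TPM in KO-labelled scWAT of A24, A26 and A30, against 28.3 to 52.5 TPM in wild-type scWAT (-0.96 on the log2 scale, SE 0.23, limma adjusted p = 0.216). The KO-labelled libraries lay below all wild-type ones, as they did for Hsd11b1, which regenerates active glucocorticoid, at 229 to 251 TPM in KO-labelled and 255 to 418 TPM in wild-type scWAT (adjusted p = 0.294). Itpr3, a calcium channel of the inositol trisphosphate pathway, lay above them at 4.34 to 8.98 TPM in KO-labelled and 1.75 to 3.41 TPM in wild-type scWAT (adjusted p = 0.216). Ctsd, a protease able to cleave angiotensinogen, had 665 to 1128 TPM in KO-labelled and 1068 to 1961 TPM in wild-type scWAT (adjusted p = 0.223). Cyr61, a matrix protein induced by these receptors, had 7.89 to 27.6 TPM in KO-labelled and 24.9 to 104 TPM in wild-type scWAT (adjusted p = 0.231), and Ncf1, a subunit of the phagocyte oxidase, 12.8 to 38.5 TPM in KO-labelled and 8.28 to 15.7 TPM in wild-type scWAT (adjusted p = 0.297). Groups that do not overlap were found for 5.23% of tested scWAT genes on the higher side and 5.06% on the lower.

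In heart the genes with the lowest unadjusted p were again those in which A25, A30 and A31 stood apart. Spp1, the matrix cytokine osteopontin, stood at 19.1, 0.0760, 23.0 and 31.7 TPM in KO-labelled hearts A25, A29, A30 and A31, against 0.161 to 0.232 TPM in wild-type hearts. Rcan1, a calcineurin regulator whose own transcription follows calcineurin activity, stood at 156, 22.4, 161 and 124 TPM in the same hearts, against 22.6 to 32.7 TPM in wild-type hearts. In both genes A29 lay below the wild-type range. Atp6ap2, the receptor that binds prorenin, stood at 16.4, 6.52, 18.4 and 19.5 TPM in KO-labelled hearts A25, A29, A30 and A31, against 5.10 to 7.44 TPM in wild-type hearts. Grk5, a kinase of activated receptors, stood at 32.3, 8.57, 39.6 and 33.7 TPM, against 6.82 to 12.5 TPM in wild-type hearts, and Cyba, an oxidase subunit, at 52.7, 19.2, 56.9 and 57.5 TPM, against 16.3 to 26.6 TPM in wild-type hearts. These 5 genes had a limma adjusted p of 0.142 with all 8 hearts, and without A29 the largest adjusted p among them was 4.41e-04 for Atp6ap2. They were picked for a low p in these same hearts, and A29 was set aside for lacking such differences. The values without A29 are therefore no independent test, and 34.8% of all tested genes were called higher in that fit. Spp1, with a wild-type heart mean of 0.183 TPM, met the filter of 1 TPM only through A25, A30 and A31.

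Without A29, limma called 24 of 65 tested genes of these lists higher and 2 lower, shares of the order of the 34.8% and 4.16% of all genes given above. Of the other renin-angiotensin enzymes and binding proteins, 4 of 12 were higher: Atp6ap2, Ctsd, Mcpt4, a mast cell chymase, and Prcp, a peptidase of angiotensin II. Of the other endothelin genes, Ece2 and Edn3 were higher and Furin did not pass. Of the mineralocorticoid genes, Nr3c2, the mineralocorticoid receptor, and Hsd11b1 were lower and Sgk1 did not pass. In receptor coupling 8 of 24 were higher and none lower. Of the calcineurin and NFAT genes, Rcan1 was the 1 of 10 called, and the calcineurin subunits and NFAT factors themselves did not pass. Of the genes known to respond to these receptors, 9 of 13 were higher, with a median log2 fold change of 1.95 beside 0.39 over all genes. In this list Spp1, Nox4 and Il6 had wild-type heart means of 0.183, 0.733 and 0.0135 TPM, under the filter of 1 TPM. They were tested only because of their levels in KO-labelled hearts, Il6 only without A29. A call higher was thus favoured in advance for these genes, which count in the 13, the 65 and the median. Fibroblasts and macrophages, whose markers rose without A29 in the same libraries, also express many genes of these lists, and their part was not tested.

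**Figure D5:**
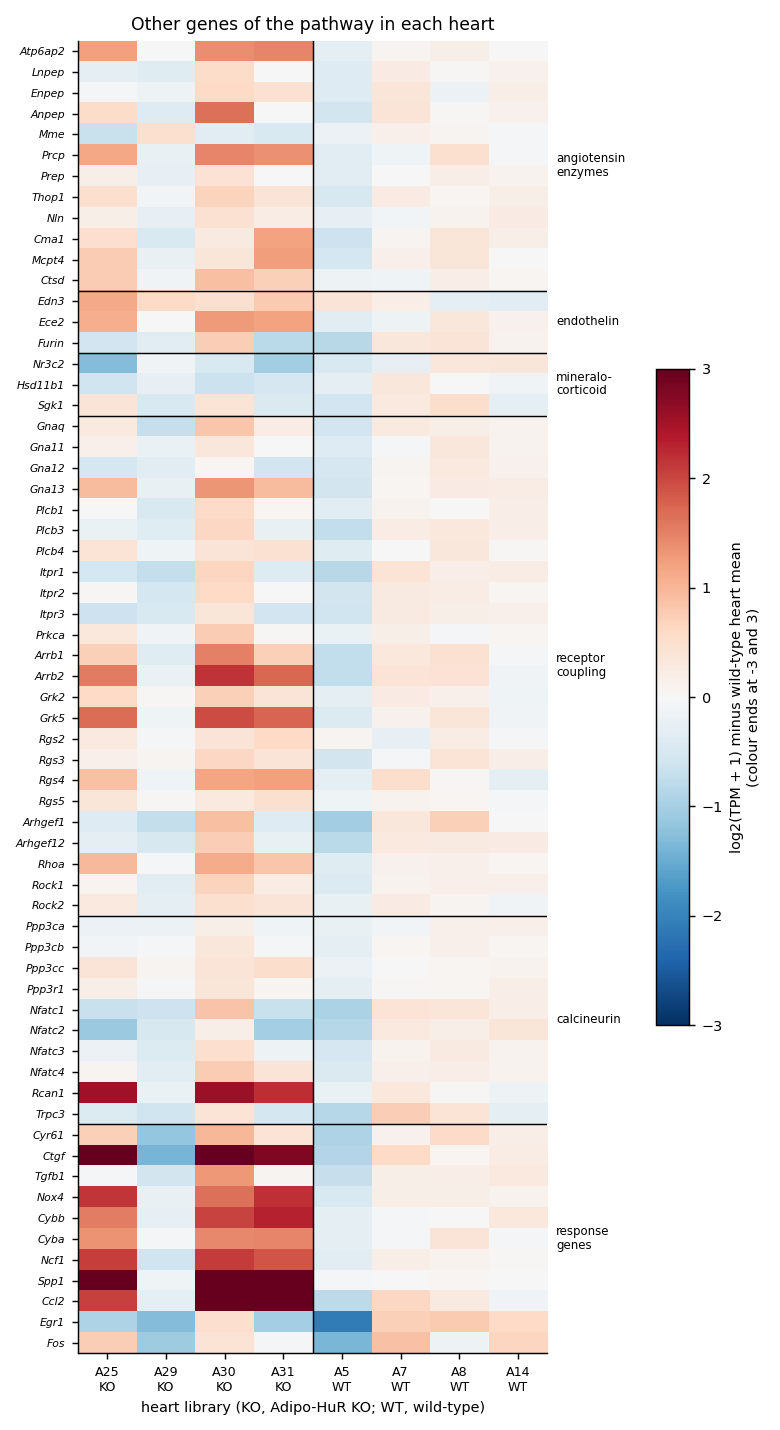
Difference of log2(TPM + 1) from the wild-type heart mean for tested genes of the 6 lists (rows) in each heart (columns, KO-labelled on the left). The KO-labelled hearts A25, A30 and A31 share high values of Rcan1 and Spp1, while the column of A29 resembles the wild-type columns.

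Of the remaining genes named for this system, Ren1, Mas1 and Edn2 were low. Higher levels were reached by Edn3 in heart and by Ece2 in both tissues. Renin (Ren1) stood at no more than 0.0796 TPM in KO-labelled hearts and 0.207 TPM in wild-type hearts, and at 0.531 to 1.01 TPM in KO-labelled scWAT and 0.103 to 0.570 TPM in wild-type scWAT. Mas1, the receptor of angiotensin-(1-7), reached at most 0.464 TPM in KO-labelled hearts and 0.955 TPM in wild-type hearts. Edn2, a second endothelin, reached at most 0.0365 TPM in any library. Edn3, the third endothelin, stood at 4.35, 2.62, 2.41 and 3.17 TPM in KO-labelled hearts A25, A29, A30 and A31, against 2.18, 1.76, 1.02 and 0.953 TPM in wild-type hearts, without overlap and with A29 among the higher libraries (0.75 on the log2 scale, SE 0.25, limma adjusted p = 0.143). Groups did not overlap on the higher side for 3.71% of tested heart genes with all 8 libraries. In scWAT Edn3 was low, at 0.0853 to 0.232 TPM in KO-labelled and at most 0.139 TPM in wild-type libraries. Ece2, an endothelin-converting enzyme related to Ece1, stood at 7.26, 2.93, 8.44 and 8.05 TPM in KO-labelled hearts, against 2.15 to 3.93 TPM in wild-type hearts, and at 3.48 to 7.55 TPM in KO-labelled scWAT and 3.36 to 7.91 TPM in wild-type scWAT.

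Likeness to each gene was measured as the root mean square difference of log2(TPM + 1), each gene centred on its own mean, over all 16 libraries and 11028 genes, as a description with no test. For Ace the nearest genes were Itga11, a collagen-binding integrin, at 0.37, Ssc5d at 0.39 and Galnt16 at 0.39, beside an SD of 1.07 for Ace itself. For Agtr1a the nearest were Syt7 at 0.24, Slc20a2 at 0.26 and Klhl21 at 0.28, beside an SD of 0.65. For Edn1 they were Katnal1, Pomgnt1 and Ptar1 at 0.22 to 0.23, beside an SD of 0.53. Agt was nearest to Fcgrt, Inca1 and Ndrg1 at 0.49 to 0.50, and Agtrap to Dnajc27 at 0.16. The patterns of Ednrb and Ece1 were common, with 2896 and 3291 genes nearer to them than 0.5 of their own SD. By the same measure 701 genes were that near to Agt, 60 to Ace, 19 to Edn1, 5 to Agtr1a and 1 to Agtrap. No gene came that near to Ednra. The libraries of the 2 tissues and the shift between them are shared by all genes in this measure.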

How the data were processed

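RNA was extracted with Trizol from frozen tissue and libraries were made with an Illumina TruSeq kit, per the labels' protocols. The authors deposited 1 table of TPM per library, per the file headers. Not given in the sources used here were the aligner, quantifier, annotation and build. Since TPM keeps no depth, the precision of single values is unknown. Groups and mouse numbers came from the labels. From the deposited TPM, log2(TPM + 1) was computed. Genes whose mean over a fit's libraries was at least 1 TPM were tested, 2-sided, in R 4.3.3 by limma 3.58.1 (lmFit and eBayes, trend on), with Benjamini-Hochberg adjustment over all tested genes and a threshold of 0.05. The log2(TPM + 1) scale understates changes of low genes. The scripts were tested on simulated data. The genes, lists, markers and alternatives were chosen with earlier results of these data known. All 9 genes and Elavl1 were always named, as were, of the other pathway genes, any that passed with all libraries, the 6 with the lowest unadjusted p in each tissue, and Ren1, Agtr1b, Mas1, Edn2, Edn3 and Ece2, apart from items not reported here. Furin, Sgk1, Mcpt4, Prcp, Nr3c2, Nox4 and Il6 were named after their values were seen. Mouse numbers pair heart and scWAT of the same animal, and the deviations of same-numbered wild-type libraries correlated across genes with Pearson r = 0.0166, 0.0498, 0.144 and 0.0761 for A5, A7, A8 and A14. Libraries of different wild-type mice gave r from -0.122 to 0.105. Only A8 lay above that range, so these values do not set same-numbered libraries apart. Alternatives changed the pseudocount, filter, scaling, weights, fit or libraries.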

Additional observations from a re-analysis of the deposited data

Results flagged for a closer look

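In groups of 4 or 5 libraries, a library was marked when its gap to the nearest other library took an unusually large share of the group's range, by Dixon's 95% critical value. Of 61 groups examined 13 were marked. The rule marks about 1 in 20 when groups are independent and chosen beforehand. Here the groups share libraries and include genes picked for a low p in these data, so the 13 marks cannot be set against that rate. No explanation was tested for any of them. Among KO-labelled hearts A29 was marked as the lowest library for Ednrb (3.7089 TPM), Ncf1 (0.937 TPM), Spp1 (0.076 TPM), Rcan1 (22.4434 TPM), Atp6ap2 (6.5206 TPM), Grk5 (8.5719 TPM) and Cyba (19.2424 TPM). Among wild-type hearts A5 was marked as the lowest for Agtrap (8.5845 TPM), Ece1 (14.2323 TPM) and Itpr3 (0.5402 TPM), and it also had the highest share of mitochondrially encoded transcripts of all hearts, at 60.6% of TPM. A8 was marked as the highest wild-type heart for Spp1 (0.2321 TPM), at a level where all wild-type hearts are low. In wild-type scWAT, A8 was marked as the lowest for Ctsd (1067.81 TPM), and A5 as the highest for Agtr2 (0.055 TPM), which was listed at 0 in every other library. A single value above 0 beside values of 0 is always marked by this rule.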

How the results depend on the processing

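Differences are on the log2 scale, KO-labelled minus wild-type unless said otherwise, and the cause of a change was not tested except where the library left out is named. The settings were chosen with earlier results known, and combinations of leaving out heart A29 with a scaling were added after seeing the data. In scWAT, none of the 9 genes was called under any setting run, and in heart none was called except without A29 or with array weights. With array weights, 3 of the genes were called higher and 4 lower in heart, and 1 higher (Ednrb) and 3 lower (Agtr1a, Agtrap and Ednra) in the difference between tissues. Without A29, 3 were higher and 1 lower, the same counts as without A29 and mitochondrially encoded genes, and 3 were higher and 3 lower without A29 under median-of-ratios scaling or quantile normalization. Over all tested genes those scalings gave 2340 higher and 2499 lower (median of ratios) or 2588 and 2676 (quantile). Leaving out single libraries, with no other change, gave 0 to 3 higher and 0 to 1 lower genes in heart, all calls in fits without A29, and 0 to 1 higher and 0 lower in the difference between tissues. In wild-type heart against wild-type scWAT, 1 gene was higher and 5 lower. Median-of-ratios scaling, quantile normalization and removal of mitochondrially encoded genes each gave 3 higher and 3 lower, array weights 3 higher, and the fit of all 16 libraries 2 higher. Leaving out 1 library gave 1 to 3 higher, with Agtrap passing without scWAT A8, scWAT A14 or heart A5 and Ednra without heart A5. Of the other pathway genes in heart, 0 were called with all libraries, against 18 higher and 8 lower (without A29, median-of-ratios scaling), 20 and 9 (quantile normalization) or 19 and 4 (without mitochondrially encoded genes), with 0 to 24 higher and 0 to 2 lower over fits that leave out a library alone. Those higher in wild-type heart numbered 2, and 1 to 3 over such fits. The mouse number as replicate block, which pairs heart and scWAT of the same animal, left every one of these genes on its side of the threshold, with 1027 higher and 10324 lower among all genes between tissues.

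Directions of small differences turned as follows, none of them called in that direction. Ace in scWAT (0.09) was -0.4976 in the libraries whose file names carry no genotype, and -0.4881 to 0.8679 leaving out each library, negative without A5, A12, A24 or A30. Agt in scWAT was -0.1979 in those same libraries. Agt in heart (0.04) was -0.1351 under median-of-ratios scaling, -0.2151 under quantile normalization, -0.0813 without mitochondrially encoded genes and -0.0292 with array weights. Without A29 the first 3 of these were -0.2482, -0.3908 and -0.1358, and leaving out a library alone gave -0.0465 (A30) to 0.1193, negative also without A14. Agtr1a in scWAT (-0.01) was 0.0200 with a pseudocount of 5, 0.0297 without mitochondrially encoded genes, 0.3729 with array weights and -0.3547 to 0.4381 leaving out libraries, positive without A8, A14 or A26. Ece1 in heart (-0.08) was -0.4111 to 0.1135, positive without A7, A8, A14, A25 or A29. In the difference between tissues, Ece1 (0.28) was -0.0746 under quantile normalization, -0.3915 with array weights and -0.0478 to 0.5841 leaving out libraries, negative without heart A30, and Ace (0.73) was -0.0508 to 1.3052, negative without scWAT A26. Edn1 in wild-type heart against scWAT (-0.76) was 0.2009 under median-of-ratios scaling and 0.2741 under quantile normalization. Elavl1 in heart (0.05) was -0.2461, -0.2267, -0.1247 and -0.1906 under median-of-ratios scaling, quantile normalization, without mitochondrially encoded genes and with array weights. Without A29 the first 3 were -0.3438, -0.3001 and -0.1107, and leaving out a library alone gave -0.1385 (A30) to 0.1415, negative also without A5.

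Counts over all tested genes moved more. In heart, 6 higher and 0 lower became 2 higher with a filter of 5 TPM, 2 lower with no filter, 5160 and 2725 with array weights, and 748 and 98 in the fit of all 16 libraries. Without A29 they were 4203 and 502, then 2340 and 2499 (median-of-ratios scaling), 2588 and 2676 (quantile normalization) and 3803 and 1179 (without mitochondrially encoded genes). Over fits that leave out a library alone they ran from 3 to 4203 and from 0 to 502. In scWAT, 2 higher and 1 lower became 5 higher with no filter, 1 and 0 with a filter of 5 TPM, 0 lower with a pseudocount of 5, 4 higher under median-of-ratios scaling and under quantile normalization, 66 and 14 with array weights, 104 and 75 in the fit of all 16 libraries, and 0 and 0 in the libraries whose file names carry no genotype. Leaving out a library gave 2 to 124 (without A26) and 0 to 34 (without A30). For the difference between tissues, 1 higher and 6 lower became 4 higher with a pseudocount of 5, 6 and 11 with no filter, 2 lower with a filter of 5 TPM, 202 and 70 under median-of-ratios scaling, 141 and 75 under quantile normalization, 4 and 13 without mitochondrially encoded genes and 3461 and 1802 with array weights, and 1 to 2599 and 4 to 264 leaving out a library, the highest without heart A29. Between wild-type tissues, 1063 higher and 10279 lower became 4273 and 4417 under median-of-ratios scaling, 4259 and 4527 under quantile normalization and 2725 and 6547 without mitochondrially encoded genes. Depth is unknown, so what it limits could not be given.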
